A study of Mus musculus with 1019 samples.

Results

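The cells described here are the Foxp3-detected cells of a single-cell RNA series on regulatory T cells (Tregs), defined as cells with at least 1 raw Foxp3 UMI, and they were compared with the Foxp3-undetected cells of the same library, which had none. Of 1019 cells, 663 had no Foxp3 UMI and the remaining 34.9% were the Foxp3-detected cells. The members were chosen by their Foxp3 count, so Foxp3 itself is given only as a description and was left out of every total and test that compared the classes. All cells came from male B6 mice aged 20 months with no treatment named in the labels, and were sorted live as DAPI- TCRb+ CD4+ CD25+ from spleen (mechanical dissociation) or visceral adipose tissue (VAT, digested with collagenase and dispase). Transcripts were captured in droplets by inDrops, which tags each mRNA molecule with a unique molecular identifier (UMI). The series title also names conventional T cells lacking FoxP3, but the labels of the 1019 cells analysed name only the CD25+ Treg sort. The sort as labelled names no FoxP3 marker. The comparison asks whether the undetected cells carry the transcripts of conventional T cells or the same Treg transcripts as the detected cells, and the cause of a missing Foxp3 UMI in a single cell was not tested.

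Foxp3 is the transcription factor that defines the Treg lineage, and its lasting expression keeps the suppressive programme in place. The programme includes CTLA-4, an inhibitory receptor that removes costimulatory ligands, CD25 (encoded by Il2ra), the high-affinity chain of the interleukin-2 receptor, and Helios (encoded by Ikzf2), a zinc finger factor found in most thymus-derived Tregs. Conventional CD4+ T cells use helper molecules such as CD40 ligand and interleukin-2 in their place, and activated conventional cells can also display CD25. VAT holds a distinct Treg population marked by ST2, KLRG1 and GATA3 that accumulates with age in male mice. On GRCm38 (mm10), Foxp3 lies on chromosome X from 7573644 to 7595245, Ikzf2 on chromosome 1 from 69531214 to 69687245, Ctla4 on chromosome 1 from 60887000 to 60915832 and Il2ra on chromosome 2 from 11642807 to 11693193.

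There was 1 spleen library with 36.8% of all cells, and there were 2 VAT libraries, numbered 2 (32.4%, 330 cells) and 3 (30.8%) as in the labels. For the spleen library the label fields conflicted: the source said spleen, the tissue field listed both organs, and its sample type gave a replicate number that the title did not. Each p-value weighs the difference between classes against its spread over these 3 libraries, estimated with help from all genes tested. The labels do not say whether the libraries came from separate animals, so whether that spread covers animals is unknown. Cells held 819 to 4970 UMIs other than Foxp3. Of 1016 cell barcodes, 3 occurred in more than 1 library.

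In the spleen library 130 cells were Foxp3-detected, a share of 34.7% (exact 95% Clopper-Pearson interval 29.9 to 39.7%). In VAT library 2 the share was 38.8% (33.5 to 44.3%). In VAT library 3 it was 31.2% (26.1 to 36.7%), with 98 cells. The intervals of the 3 libraries overlapped, and like all intervals here they cover counting error only. Most members sat at the edge of the rule: 77 spleen cells, 71 cells of VAT library 2 and 58 cells of VAT library 3 had exactly 1 Foxp3 UMI, next to the undetected cells at 0. Cells with 3 or more numbered 18, 33 and 21, and the highest count in 1 cell was 8, 10 and 9.

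The 2 classes were sequenced to similar depth. The median UMI count was 1440.5 in detected and 1391 in undetected spleen cells, 1627 and 1544.5 in VAT library 2, and 1694 and 1593 in VAT library 3. Detected cells were thus slightly deeper in each library. For the test across genes each detected cell was therefore paired with 1 undetected cell of close UMI count. The median difference within a pair was 3.5, 7 and 5 UMIs, and the largest was 914, 566 and 523. The paired undetected cells had medians of 1435, 1626 and 1692.5 UMIs. Levels of single genes from that test are UMIs per 10000 UMIs of the matched cells, scaled by edgeR's library factors, and sparse genes are given in UMIs. Where a share of cells is given by class, every cell was first thinned to 800 UMIs unless said otherwise. Summed list levels use all UMIs and all cells of a class, per 10000 UMIs.

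Genes of proteins that the sort itself required also went undetected in many cells. Cd4, the co-receptor used in the sort, had a UMI in 37.9% of spleen cells, 41.8% of cells of VAT library 2 and 31.5% of cells of VAT library 3. Cd3e, a chain of the T cell receptor complex, had a UMI in 25.1%, 19.1% and 16.2%. Il2ra, which encodes the CD25 on which every cell was sorted, was found in 30.9% of spleen cells and in 63% and 56.7% of VAT cells. The plot of detection by gene places Foxp3 beside these genes.

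**Figure D1:**
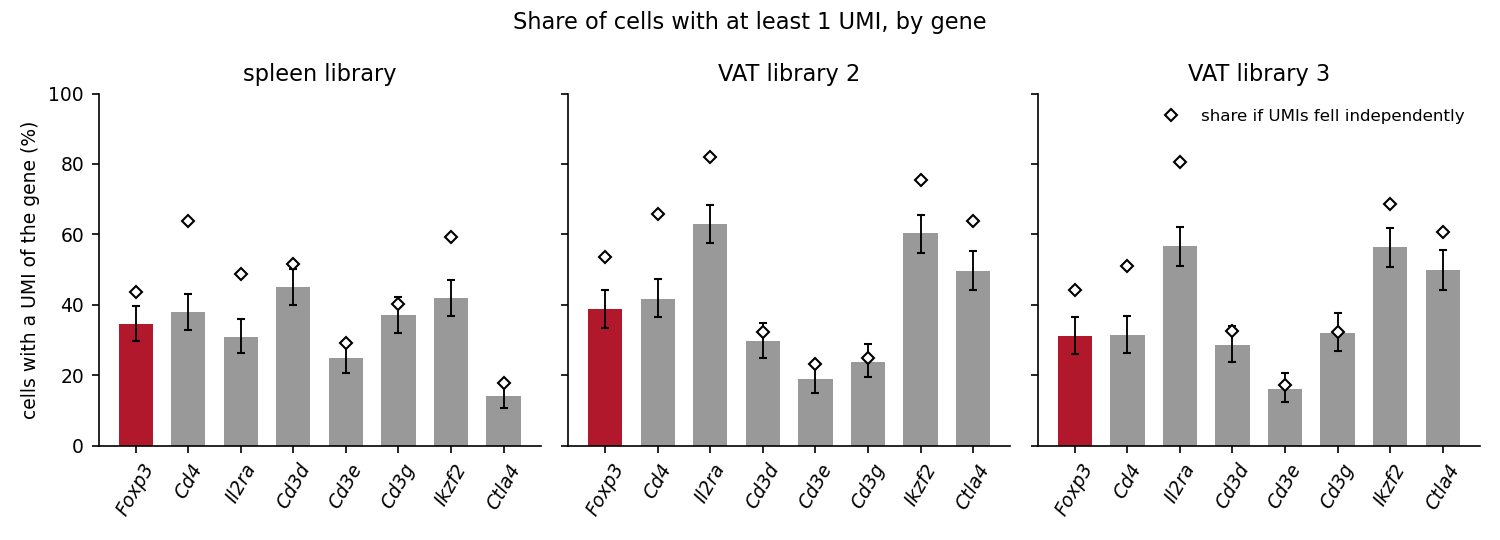
Share of cells with at least 1 UMI of each gene in the 3 libraries (bars, percent of cells, exact 95% intervals), with the share that would have a UMI if the gene's UMIs fell on cells independently and in proportion to depth (diamonds). Foxp3 (red) was at 34.7, 38.8 and 31.2%, close to Cd4 at 37.9, 41.8 and 31.5%.

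Foxp3 UMIs were more clumped than independent sampling would make them. If the library's Foxp3 UMIs had fallen on cells in proportion to depth, 43.6% of spleen cells, 53.6% of cells of VAT library 2 and 44.2% of cells of VAT library 3 would have had one, so the observed shares were 0.79, 0.72 and 0.71 of that value. Clumping of this size was common. Among genes with a similar UMI total (from 0.75 to about 1.3 times that of Foxp3), which were 0.79%, 0.73% and 1.05% of the 23725 gene rows, the median ratio was 0.81, 0.80 and 0.76. Of these genes 46.3%, 23.1% and 32.3% were more clumped than Foxp3. Cd4, whose protein all sorted cells carried, had ratios of 0.59, 0.63 and 0.62, below Foxp3 in each library, whereas Cd3g, another chain of the T cell receptor complex, had ratios of 0.92, 0.96 and 0.997, above it in each.

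Foxp3 detection was not strictly ordered by depth. With the cells of a library ordered by UMI count and cut into 4 equal bins, from shallow to deep, the share was 36.2, 29.8, 35.1 and 37.6% in the spleen library, 38.6, 32.5, 32.9 and 51.2% in VAT library 2, and 22.8, 34.2, 32.1 and 35.9% in VAT library 3. The deepest bin had the highest share in each library, while the shallowest had the lowest in VAT library 3 alone. Free RNA in droplets can place a UMI in a cell that does not express the gene. No cell class that should lack Foxp3 was labelled in these libraries, so the part of free RNA in the detected share was not tested.

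UMIs of Treg partner genes of Foxp3 were present in both classes. Every cell was sorted on CD25, which Il2ra encodes and activated conventional cells can also display. Il2ra UMIs in the shares below therefore cannot tell Tregs from such cells. After thinning, a UMI of Ikzf2, Ctla4 or Il2ra was found in 65 of the 130 detected (41.1 to 58.9%) and 47.8% of undetected spleen cells (41.4 to 54.2%). The shares were 74.2% (65.7 to 81.5%) and 78.7% (72.4 to 84.1%) in VAT library 2. In VAT library 3 they were 76.5% (66.9 to 84.5%) and 70.8% (64.3 to 76.8%). The intervals overlapped in each library, and the sign of the difference was not the same in all 3. Without thinning the shares were 68.5 and 62.4%, 89.1 and 89.6%, and 92.9 and 87%.

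Ikzf2 was at 6.27 per 10000 UMIs in detected and 6.47 in matched undetected spleen cells, 7.88 and 9.98 in VAT library 2, and 7.71 and 6.30 in VAT library 3. The classes were nearly level in spleen and opposite in sign between the VAT libraries (log2 ratio -0.049, SE 0.14, p = 0.73 and adjusted p = 0.999 by edgeR's quasi-likelihood test with the library as a term and Benjamini-Hochberg adjustment). Without VAT library 2 it was 0.13. Ctla4 was at 1.53 and 1.39 per 10000 UMIs in spleen, 9.05 and 4.33 in VAT library 2, and 5.85 and 7.11 in VAT library 3. Its ratio was 2.09 (1.63 to 2.70) in VAT library 2 but 0.82 (0.63 to 1.08) in VAT library 3, so the fitted log2 ratio of 0.36 (SE 0.23, edgeR p = 0.13, adjusted p = 0.999) rested on VAT library 2 and was -0.13 without it. Il2ra was at 4.20 and 4.77 per 10000 UMIs in spleen, 14.1 and 8.02 in VAT library 2, and 12.7 and 10.6 in VAT library 3. It was higher in the detected cells of both VAT libraries and lower in those of the spleen library (log2 ratio 0.36, SE 0.15, edgeR p = 0.033, adjusted p = 0.999). Without VAT library 2 the log2 ratio of Il2ra was 0.087. Single cells weighed on these sums: the highest count of Il2ra in 1 thinned cell of VAT library 2 was 11 and that of Ctla4 was 9, both in detected cells.

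Other Treg surface receptors gave a mixed picture. Tnfrsf4, which encodes the costimulatory receptor OX40, was at 4.15 and 3.03 per 10000 UMIs in spleen, 9.23 and 6.01 in VAT library 2, and 8.44 and 6.998 in VAT library 3. It was higher in detected cells of all 3 libraries (log2 ratio 0.45, SE 0.14, edgeR p = 0.0059, adjusted p = 0.999). Tnfrsf18, encoding GITR, another receptor of that family, was at 3.06 and 3.08, 6.58 and 5.69, and 5.57 and 5.95 per 10000 UMIs (log2 ratio 0.045, SE 0.16). Izumo1r, which encodes folate receptor 4, was at 11.8 and 13.8 per 10000 UMIs in spleen and at most 1.52 in a class of either VAT library, and was lower in detected cells of all 3 libraries (log2 ratio -0.34, SE 0.19, edgeR p = 0.088). Capg, an actin-capping protein gene, had a log2 ratio of -0.015 (SE 0.15).

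**Figure D2:**
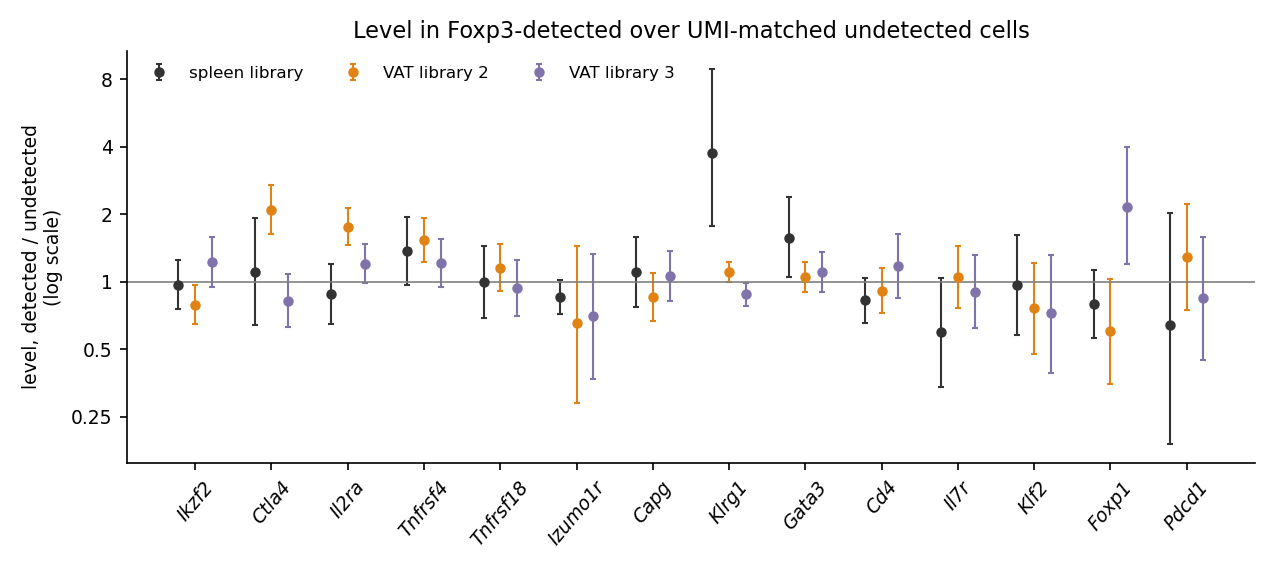
Ratio of the level in Foxp3-detected cells to that in UMI-matched Foxp3-undetected cells for 14 genes (log axis), 1 point per library with its exact 95% counting interval. Tnfrsf4 is above 1 in all 3 libraries, whereas Ctla4 runs from 0.82 in VAT library 3 to 2.09 in VAT library 2.

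As a list, the Treg partner genes (22 genes, Foxp3 left out) were slightly more abundant in detected cells. Their summed level was 55.7 per 10000 UMIs in detected and 51.8 in undetected spleen cells, a ratio of 1.08 (exact interval 0.999 to 1.16). In VAT library 2 it was 69.5 and 55.8, a ratio of 1.25 (1.163 to 1.333). In VAT library 3 it was 60.5 and 52.3, a ratio of 1.16 (1.07 to 1.25). UMIs came in clumps, so these intervals are too narrow. In UMI-matched and thinned cells the ratios were 1.07 (0.95 to 1.20), 1.20 (1.07 to 1.35) and 1.09 (0.95 to 1.24), of which that of VAT library 2 alone had an interval above 1. Without Tnfrsf4, Tnfrsf9 and Il2ra, left out after their values were seen because they had the smallest p-values among the higher members, the ratios were 1.07, 1.09 and 1.06.

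Counted by gene, 20 of the 22 members had 20 or more UMIs and were tested, and 17 of these had a UMI in all 3 libraries. Of the 17, Tnfrsf4, Tnfrsf9 and Swap70 were higher in detected cells of all 3 libraries and Izumo1r and Lrrc32 lower, against 10.8% higher and 15.2% lower among the 7255 genes with a UMI in all 3. That is 17.6% and 11.8% of the 17. The median log2 ratio of the list was 0.057, and that of all 7428 genes tested was -0.0069. None of the 20 passed an adjusted p of 0.05.

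The distributions over cells overlapped throughout. After thinning, the median number of Treg partner UMIs per cell was 4 in each class of each library. Cells with none made up 5.38% of detected and 7.35% of undetected spleen cells, 3.12% and 3.47% in VAT library 2, and 2.04% and 4.17% in VAT library 3. The undetected cells did not form a separate group at 0. The list holds Il2ra, every cell was sorted on CD25, and no conventional cells were labelled for reference. The lack of such a group therefore does not tell whether the undetected cells included conventional cells. The highest count in VAT library 2 was 25 in detected and 16 in undetected cells, though in the spleen library it was 19 and 20.

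**Figure D3:**
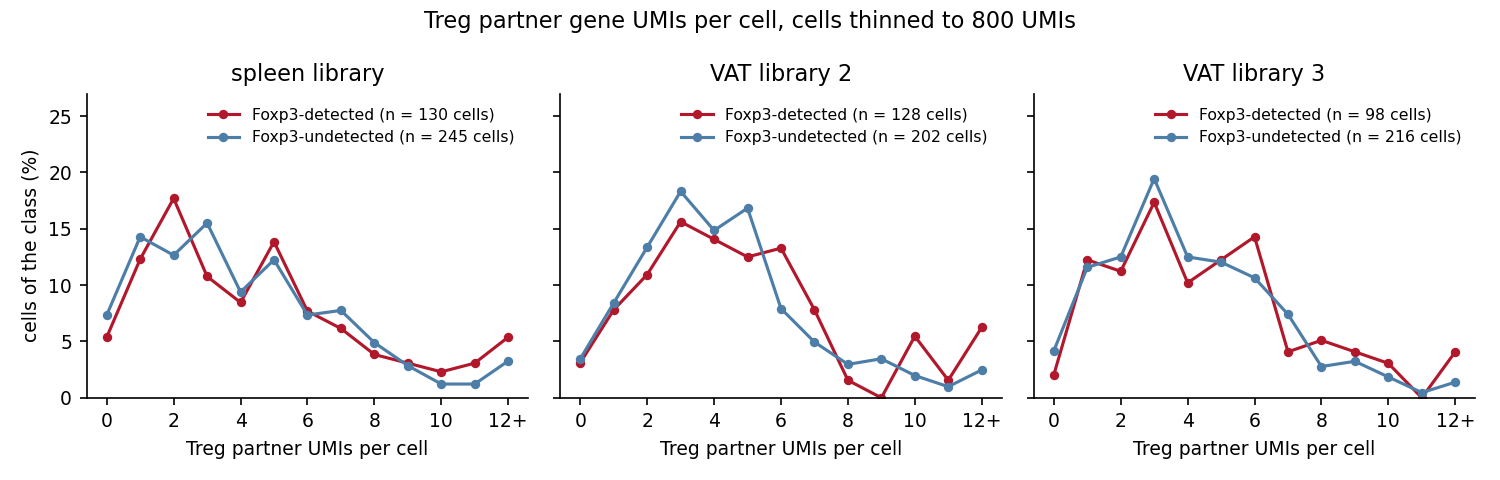
Share of cells (percent of the class) by number of Treg partner UMIs after thinning to 800 UMIs, for Foxp3-detected (red) and Foxp3-undetected cells (blue) of each library. Both curves have a median of 4 UMIs in every library, and few cells of either class are at 0.

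More Foxp3 UMIs did not go with a steadily higher Treg partner level. In spleen the level was 51.8 per 10000 UMIs in cells with no Foxp3 UMI, 58.6 (54.3 to 63.1) with 1 and 51.9 (47.1 to 56.9) with 2 or more. In VAT library 2 it was 55.8, 68 (63.4 to 72.9) and 71.2 (66.2 to 76.4). In VAT library 3 it was 52.3, 62.5 (57.8 to 67.4) and 57.7 (52.4 to 63.4). Cells with 1 UMI were above undetected cells in each library, and cells with 2 or more were above those with 1 in VAT library 2 alone.

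Genes that mark conventional helper T cells were scarce in both classes. Cd40lg, encoding CD40 ligand, gave 25 UMIs over all 1019 cells, 6 in detected and 19 in undetected cells, and in the fit 1 and 2, 3 and 4, and 2 and 3 UMIs in detected and matched undetected cells. Il2, the growth factor that Foxp3 represses, gave 1 UMI and Ifng gave 3, all in undetected cells, while Il4, Il17a, Il17f and Il22 gave 0. Over all cells, Csf2 gave 2 UMIs in detected and 13 in undetected cells, Il5 4 and 10, and Il13 2 and 1. Il21 gave 0 and 1, and Tnfsf11 10 and 32. Undetected cells were 663 of the 1019, so more UMIs there are partly a matter of cell number. Of 23 effector genes, 13 had fewer than 20 UMIs (5 of them none), so 10 were tested. Pdcd1, encoding the checkpoint receptor PD-1, was the most abundant, with 6 and 9, 34 and 26, and 21 and 24 UMIs. The cytokine gene Tnf gave 0 and 4, 32 and 19, and 5 and 19.

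The summed level of the effector list was 4.50 per 10000 UMIs in detected and 3.69 in undetected spleen cells, a ratio of 1.22 (0.92 to 1.60). It was 4.16 and 4.70 in VAT library 2, a ratio of 0.89 (0.68 to 1.15), and 3.13 and 3.99 in VAT library 3, a ratio of 0.78 (0.57 to 1.07). All 3 intervals held 1. These ratios moved with the cells and UMIs counted: after thinning they were 0.77 (0.50 to 1.16), 0.57 (0.36 to 0.87) and 0.93 (0.55 to 1.52), with another random seed 1.29, 0.79 and 0.59 (0.35 to 0.97 for the last), and in UMI-matched and thinned cells 0.83, 0.62 and 0.83. They were below 1 in both VAT libraries in each setting, and the sign in spleen was not settled. In spleen, Ccl5, a chemokine gene of effector T cells, gave 35 UMIs in detected and 5 in matched undetected cells, and 9.23 and 2.04% of cells had one. Without Ccl5, left out after its values were seen, the ratios were 0.85 (0.61 to 1.17), 0.91 (0.69 to 1.18) and 0.73 (0.52 to 1.01), below 1 in all 3 libraries with intervals that still held 1. Over the 10 tested genes the median log2 ratio was -0.17. None passed an adjusted p of 0.05, and of the 6 with a UMI in all 3 libraries 1 (Tnfsf8) was higher and 1 (Cd40lg) lower in all 3, which is 16.7% each beside 10.8% and 15.2% of all genes.

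With all UMIs counted, genes of resting conventional T cells were at a lower level in the detected cells of VAT library 2 and near level elsewhere. The list's summed level was 22.5 and 23.6 per 10000 UMIs in spleen, a ratio of 0.96 (0.85 to 1.07), 10.5 and 13.8 in VAT library 2, a ratio of 0.76 (0.65 to 0.90), and 11 and 10.8 in VAT library 3, a ratio of 1.02 (0.85 to 1.21). The ratio in VAT library 2 was 0.79 (0.63 to 0.99) after thinning, 1.01 (0.81 to 1.27) with another random seed and 0.80 (0.62 to 1.02) in UMI-matched and thinned cells. Il7r, the interleukin-7 receptor chain that Tregs carry at low level, gave 23 and 37, 85 and 80, and 59 and 63 UMIs. Klf2, which promotes exit from tissue into blood, gave 33 and 33, 35 and 45, and 21 and 28. Satb1, a genome organiser that Foxp3 represses, gave 26 and 23, 1 and 9, and 0 and 3, and Bcl2, a survival gene, gave 40 and 62 in spleen. Ccr7, a lymph node homing receptor, was found mostly in spleen, with 32 and 23 UMIs. Tcf7, encoding the factor TCF-1 of resting T cells, gave 4 and 8 UMIs in spleen and none in the VAT cells compared.

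None of the 17 resting genes tested passed an adjusted p of 0.05, and of 13 with a UMI in all 3 libraries 1 (Bach2) was higher and 3 (Actn1 and Klf2 among them) lower in all 3. These are 7.69% and 23.1%, beside 10.8% and 15.2% of all genes. Klf2 was counted as lower in spleen at equal UMIs because the fit scales by library totals. Both conventional lists together had ratios of 0.99 (0.89 to 1.10), 0.795 (0.69 to 0.91) and 0.95 (0.82 to 1.11) in the spleen library and VAT libraries 2 and 3. In VAT library 2 the ratio was 0.73 (0.60 to 0.89) after thinning, 0.96 (0.78 to 1.16) with another random seed and 0.75 (0.61 to 0.94) in UMI-matched and thinned cells. The ratio was below 1 in all 3 libraries in each of these settings, and in spleen and VAT library 3 its interval held 1 in each.

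**Figure D4:**
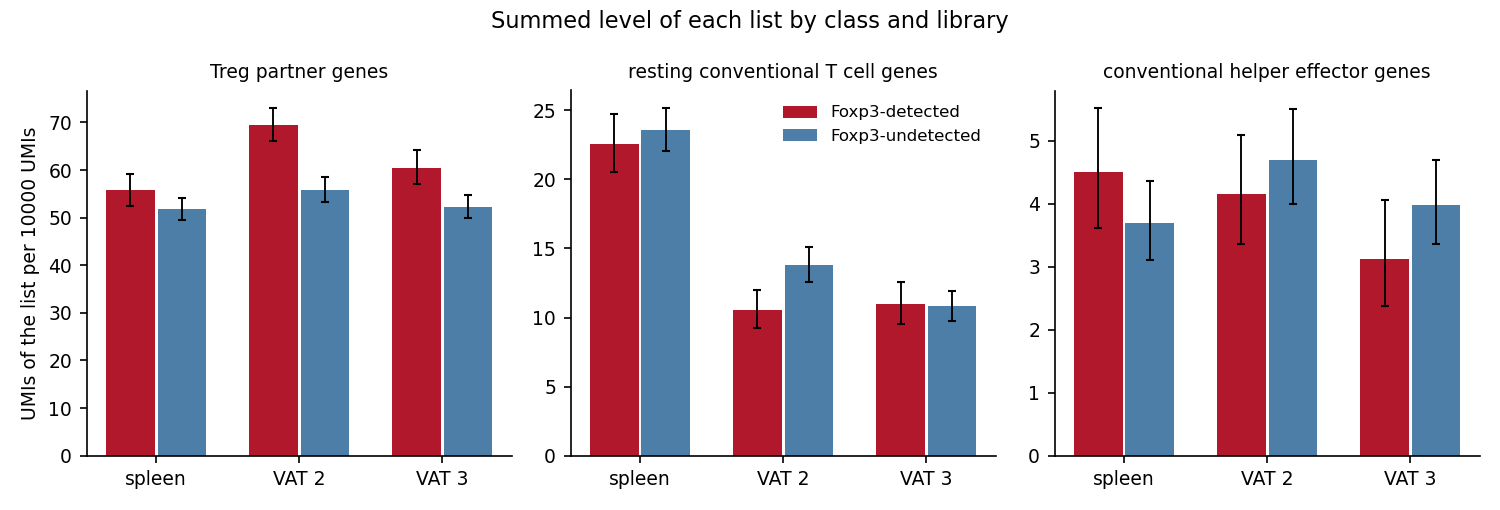
Summed UMIs of 3 gene lists per 10000 UMIs of the class (bars, with exact 95% Poisson intervals) in Foxp3-detected (red) and Foxp3-undetected cells (blue) of each library. The Treg partner list is higher in detected cells of all 3 libraries, by 1.08, 1.25 and 1.16 times, while the effector list is higher in spleen and lower in both VAT libraries and the resting list is lower in spleen and VAT library 2.

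Read the other way, Foxp3 was found both in cells with few and in cells with many Treg partner UMIs. In cells with none the share was 28% in spleen (7 of 25 cells, 12.1 to 49.4%), 36.4% in VAT library 2 (4 of 11, 10.9 to 69.2%) and 18.2% in VAT library 3 (2 of 11, 2.28 to 51.8%). In cells with 7 or more it was 37.3% (27 to 48.7%), 46% (33.4 to 59.1%) and 35.1% (22.9 to 48.9%). The highest bin was above the 0 bin in each library, with overlapping intervals. The Foxp3 level went from 2.67 to 3.85 per 10000 UMIs between these bins in spleen and from 1.05 to 2.94 in VAT library 3, but from 6.54 to 4.12 in VAT library 2. By UMIs of both conventional lists the share went from 34.1% at 0 to 35% at 3 or more in spleen, from 45.9 to 28.3% in VAT library 2 and from 28.5 to 29.2% in VAT library 3. In VAT library 2 alone it was lower at each step, with intervals of 36.3 to 55.7% at 0 and 17.5 to 41.4% at 3 or more.

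**Figure D5:**
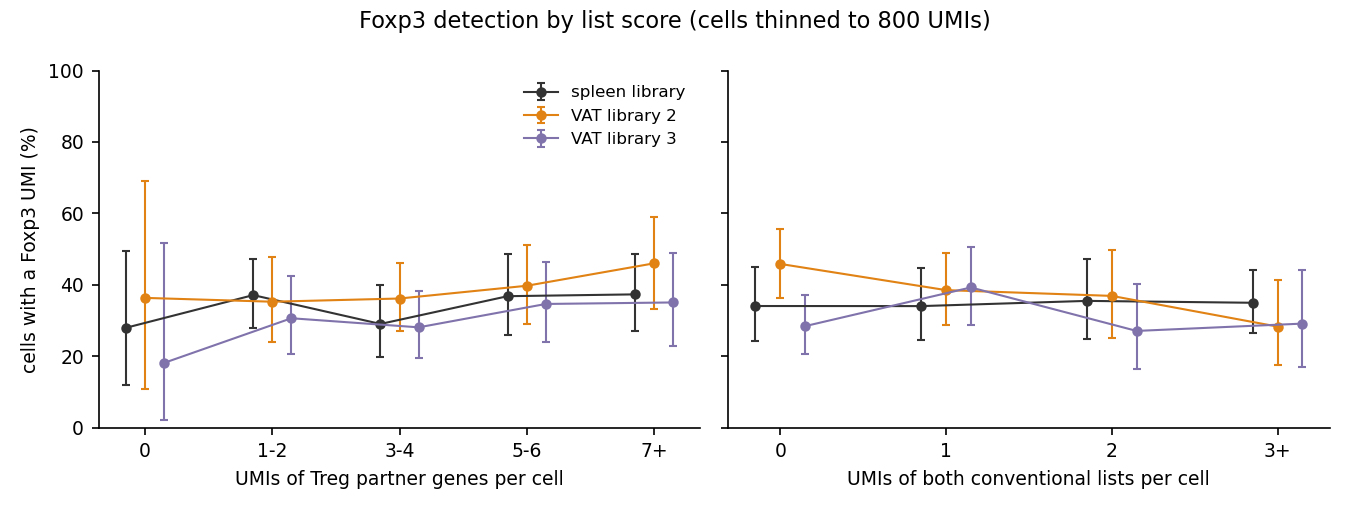
Share of cells with a Foxp3 UMI (percent, exact 95% intervals) by the number of Treg partner UMIs (left) and of conventional T cell UMIs (right) per cell after thinning, 1 line per library. On the left the highest bin is at 37.3, 46 and 35.1%, and the 0 bin at 28, 36.4 and 18.2% rests on 25, 11 and 11 cells.

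Clusters made without Foxp3 also held detected cells throughout. The spleen library gave 7 clusters with shares from 22.4% (11 of 49 cells, 11.8 to 36.6%) to 47.8% (33 of 69 cells, 35.6 to 60.2%). The VAT libraries together gave 8 clusters, from 28.1% (18 of 64, 17.6 to 40.8%) to 45.9% (34 of 74, 34.3 to 57.9%). By library, the first of these was at 37.5% in VAT library 2 and 18.75% in VAT library 3, and the second at 51.2 and 38.7%. Clusters did not keep their order between the VAT libraries: others were at 43.5 and 18.9%, 27.3 and 30.8%, and 35.4 and 45.8%. After thinning, the spleen cluster with the lowest share had 41.6 Treg partner and 32.9 conventional UMIs per 10000, and the one with the highest had 58.3 and 20.5. The order of the shares was not that of the Treg partner levels: the spleen cluster with the lowest level, 38.1 per 10000, had a share of 39.3%, and one at 52.6 had 23.3%. Treg partner levels ran from 38.1 to 82.2 per 10000 in the spleen clusters and from 50.1 to 74.2 in the VAT clusters. Clusters of this size would hold some UMIs of the list in any case. Their presence therefore does not tell whether a cluster held conventional cells. At a coarser resolution the spleen cells formed 2 clusters with shares of 32.1 and 38.3%, whose Treg partner levels were 43.9 and 70.8 per 10000, and all VAT cells formed 1.

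Genes of tissue Tregs were also compared. Klrg1, an inhibitory receptor of VAT Tregs, was at 37.04 and 33.5 per 10000 UMIs in VAT library 2 and 31.4 and 35.7 in VAT library 3, higher in detected cells of the one and lower in those of the other. After thinning it was found in 82.03 and 74.3%, and in 77.6 and 79.2% of detected and undetected cells. In spleen it gave 35 and 9 UMIs and was found in 4.62 and 1.22% of cells. Gata3, a factor of the VAT Treg programme, was higher in detected cells of all 3 libraries, with 3.31 and 2.10, 14.96 and 14.3, and 11.5 and 10.4 per 10000 UMIs (log2 ratio 0.21, SE 0.13, edgeR p = 0.12). Il10, a suppressive cytokine, was at 0 and 0.31, 13.2 and 7.24, and 8.27 and 9.80 per 10000 UMIs. The summed list gave ratios of 1.68 (1.39 to 2.05), 1.17 (1.12 to 1.23) and 1.01 (0.95 to 1.06), and none of its 18 genes passed an adjusted p of 0.05. Of its 16 genes with a UMI in all 3 libraries, Areg and Gata3 were higher in detected cells of all 3 and Pparg lower. These are 12.5% and 6.25%, beside 10.8% and 15.2% of all genes. Areg was nearly level in VAT library 3, with a ratio of 1.003 (0.86 to 1.16). Its ratio was 1.23 in the other VAT library (1.06 to 1.41), and spleen gave 14 and 0 UMIs. Il1rl1, which encodes ST2, was not of 1 sign. Both VAT libraries held its classes near level, with ratios of 0.97 (0.81 to 1.17) and 0.99 (0.81 to 1.21). Its spleen sums were 8 and 3 UMIs.

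Across all 7428 genes with 20 or more UMIs, edgeR called 0 genes at an adjusted p of 0.05 (0%), and 3.86% had an unadjusted p under 0.05. DESeq2 called 0 and gave 22 unadjusted. The smallest adjusted p was 0.71, for Cxcl2, a chemokine gene with 2 and 0 UMIs in spleen, 31.04 and 21.1 per 10000 UMIs in VAT library 2 and 22.5 and 14.2 in VAT library 3 (log2 ratio 0.62, SE 0.12, edgeR p = 9.5e-05). Vps28, an endosomal sorting gene, followed with 43 and 21, 89 and 38, and 54 and 26 UMIs, about 2 times higher in detected cells of each library (ratios 1.97, 2.30 and 2.004, edgeR adjusted p = 0.95). The other higher genes with the smallest p-values were Rnf26, Fam134a and Ccni, at log2 ratios of 2.41 (SE 0.67), 1.21 (SE 0.34) and 1.86 (SE 0.53).

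The lower genes with the smallest p-values were Marcksl1 (1 and 18 UMIs in spleen, 0 and 1, and 0 and 5 in VAT), Rps18, Fundc2, Rpl41 and Ccr9. Ccr9, a gut homing receptor, gave 2 and 42 UMIs in VAT library 3 and 14 and 24 in VAT library 2. Ribosomal protein genes, which include Rps18 and Rpl41, were lower in detected cells of all 3 libraries for 51 and higher for 0 of 83 with a UMI in all 3 (61.4%, beside 15.2% of all genes), with a median log2 ratio of -0.10. They made up 29.9% of UMIs in detected and 30.97% in undetected spleen cells, 17.2 and 18.5% in VAT library 2, and 19.8 and 20.1% in VAT library 3. Because levels are shares of a total, these values and those of the other genes are linked. In the fit without ribosomal protein genes 0 genes were called, and the median log2 ratio of the Treg partner genes was 0.058, that of Cxcl2 0.63 and that of Vps28 1.07.

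Genes of T cell identity did not separate the classes. All cells were sorted as TCRb+ CD4+, so these genes cannot tell Tregs from conventional CD4+ T cells. Cd4 was at 6.87 and 8.31, 6.36 and 6.97, and 4.78 and 4.08 per 10000 UMIs, and Cd3e gave 39 and 45, 43 and 33, and 21 and 20 UMIs. The summed level of 16 T cell receptor and CD4 genes had ratios of 0.97 (0.91 to 1.03), 1.004 (0.94 to 1.07) and 0.98 (0.92 to 1.06). Of 19 tested regulators and cofactors of Foxp3, Stat5b was higher and Ets1 lower in all 3 libraries, 5.26% each beside 10.8% and 15.2% of all genes. The summed level of that list had ratios of 0.97 (0.87 to 1.08), 1.18 (1.11 to 1.26) and 0.96 (0.88 to 1.03). Nr4a1, a factor induced by the T cell receptor, was at 1.63 and 0.87, 50.4 and 41.1, and 32.9 and 33.5 per 10000 UMIs. Immediate early genes, which also respond to dissociation, had ratios of 1.28 (1.15 to 1.42), 1.08 (1.05 to 1.11) and 0.97 (0.94 to 0.999). In UMI-matched and thinned cells these were 1.31, 1.15 and 1.01 (0.96 to 1.07 for the last). Against matched undetected cells, Fos, Junb, Egr1, Btg2 and Nfkbia were higher in detected cells of all 3 libraries (5 of 18, 27.8%, beside 10.8% of all genes). In VAT library 3 some of these were near level: Egr1 at 3.43 and 3.32 and Btg2 at 6.86 and 6.82 per 10000 UMIs, and Nfkbia with a ratio of 1.02 (0.93 to 1.11). None of these genes passed an adjusted p of 0.05. Cell cycle genes gave ratios of 0.93, 0.81 and 1.13.

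Markers of other cell types were rare in both classes. B cell markers were at 1.88 and 1.64 per 10000 UMIs in detected and undetected spleen cells, 0.22 and 0.36 in VAT library 2, and 0.82 and 0.60 in VAT library 3, and Cd79a gave 0. Myeloid markers were at 4.35 and 4.66, 2.52 and 2.12, and 2.25 and 2.43, most of it Cst3 and Ctss, while C1qa, Adgre1 and Cd14 gave 0. CD8 and natural killer markers were at 0.79 and 0.70, 0.89 and 0.67, and 0.82 and 0.63, most of it Cd8b1. Cd8a and Ncr1 gave 0. With all UMIs counted, the CD8 and natural killer list was thus higher in detected cells of all 3 libraries. After thinning its ratios were 0.808, 0.947 and 1.202, and with another random seed 1.615, 1.578 and 1.259. In UMI-matched and thinned cells the ratio was below 1 in spleen and VAT library 2 and above 1 in VAT library 3. The exact interval held 1 in every library and setting, so the direction was not settled. Adipocyte, stromal and endothelial markers were between 0.09 and 0.94 in every class, and Adipoq gave 0. Erythroid markers were at 1.53 and 2.29 in spleen and gave at most 1 UMI in a VAT class. The part of these markers in the differences above was not tested, apart from the fit without cells holding 2 or more of their UMIs, which called 0 genes.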

How the data were processed

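Per the labels' protocols, mRNA of sorted single cells was captured by inDrops with linear amplification, and a NextSeq500 was used for sequencing. Per the submitters' processing notes TopHat2, SAMtools and the mm10 build were used. Gene annotation, cell filter and doublet removal are not given in the sources used here. No doublet caller was run. The authors deposited raw UMI counts for 23725 gene symbols in each cell. Each cell was grouped by its source label and the library in its title. No mitochondrial rows were found.

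Members and lists were chosen with earlier results of these data known. UMIs were summed per library and class, with each detected cell matched to 1 undetected cell by UMI count, and tested with edgeR 4.0.16 in R 4.3.3 (quasi-likelihood, TMM, library as a term, genes with 20 or more UMIs, Benjamini-Hochberg over 7428 genes). Per-library directions add 0.5 to each sum. The same fit on simulated data of these 7428 genes recovered 54% of genes changed 2-fold and 99% of those changed 4-fold, with 1 false call, where changed genes had 200 or more UMIs. Alternatives were DESeq2 1.42.0, other scaling, filters, cell sets and leaving out each library. Thinning was without replacement. Clusters came from scanpy 1.11.5 variable genes (2000), 20 principal components, shared neighbours among 15 cells and the Leiden method at resolution 1. Named genes were the 4 markers, the 5 smallest p-values per direction with the same sign in all libraries, the most abundant members of each list and 15 genes always named; Tnfrsf9, Swap70 and other list members with 1 sign in all libraries were named after their values were seen. Of the lists, Trac, Trbc1, Trbc2 and Hba-a1 were among the symbols without a row. Coordinates are from GENCODE M21. Some list members are not reported here by name.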

Additional observations from a re-analysis of the deposited data

Results flagged for a closer look

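The summed level of the conventional helper effector genes in detected over undetected cells was 1.217 in the spleen library and 0.885 and 0.785 in the VAT libraries. Il2ra had a log2 ratio of -0.1844 in the spleen library and was higher in detected cells of both VAT libraries. In each case these values of the spleen library and both VAT libraries lay on opposite sides of no difference. For the effector genes this did not hold in thinned cells, where the spleen ratio was 0.768, nor in UMI-matched and thinned cells, where it was 0.825. The difference between tissues was not tested, since the spleen is 1 library.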

How the results depend on the processing

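No gene passed an adjusted p of 0.05 under any of the 13 alternative fits, with 0.30% (DESeq2) to 4.40% of genes at an unadjusted p under 0.05 and smallest adjusted p-values from 0.065 (without cells carrying 2 or more UMIs of other cell types' markers) to 1. The median log2 ratio of the Treg partner genes ran from 0.032 to 0.11. That of the effector genes was -0.67 with all cells thinned, and leaving out each library it ran from -0.40 (without spleen) to 0.0058. That of the resting genes ran from -1.02 (without spleen) to -0.066 (without VAT library 2). Leaving out each library, the log2 ratio ran from -0.20 to 0.13 for Ikzf2, -0.13 to 0.77 for Ctla4, -0.080 to 0.12 for Capg and -0.046 to 0.12 for Tnfrsf18, and each changed sign without VAT library 2. Ikzf2 was at 0.032 with 2 or more Foxp3 UMIs against 0, and Capg was at 0.017 without matching and 0.0043 with no filter. The cause was not tested. Without thinning, the shares with an Ikzf2, Ctla4 or Il2ra UMI were 68.5, 89.1 and 92.9% in detected and 62.4, 89.6 and 87% in undetected cells, since more UMIs were counted. The summed level ratio of both conventional lists in VAT library 2 was 0.795 with all UMIs and 0.96 with cells thinned under another seed. That of the effector genes was 0.768 thinned and 0.825 matched and thinned in spleen, against 1.22 with all UMIs, and 0.565 and 0.617 in VAT library 2, against 0.885. That of the resting genes in VAT library 2 was 1.01 with another seed. Without VAT library 2 the log2 ratio of Il2ra was 0.087. Thinned list levels and lists without named genes were added after seeing the data. No paired analysis by replicate number was possible because the labels pair no libraries, and the library is a term of the fit. In the effector list 13 of 23 genes had under 20 UMIs, too few to test.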
